A study of Mus musculus with 6 samples.

Results

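The 10 genes studied drive fat cell formation or handle fatty acids, and were followed in mouse embryonic fibroblasts (MEFs), which are connective tissue cells grown from embryos. They were 4 transcription factors (*Pparg*, *Cebpa*, *Cebpb* and *Cebpd*), 2 fatty acid binding proteins (*Fabp4* and *Fabp5*), the fatty acid receptor *Cd36*, the lipase *Lpl* with its inhibitor *Angptl4*, and the lipid droplet protein *Plin2*. The genes were chosen by symbol, and all 10 were found among the 17092 genes of the count table and passed the filter on low counts. The cells came from wild-type (WT) mice and from *Aff3ir-ORF2*-/- mice, in which *Aff3ir-ORF2*, a coding variant of a gene nested in *Aff3*, had been deleted in the whole animal with CRISPR/Cas9. RNA of 3 libraries per genotype was sequenced, and no other treatment is given for these cells. The age and number of the embryos, and whether the libraries came from separate cultures, are not given in the sources used here, so p-values measure only the spread between these libraries, which may be technical.

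As background, PPARγ, encoded by *Pparg*, is the nuclear receptor without which fat cells do not form. C/EBPβ and C/EBPδ act early in adipogenesis and induce C/EBPα and PPARγ, which then maintain each other and switch on genes of fatty acid uptake and storage such as *Fabp4*, *Cd36*, *Lpl* and *Angptl4*. MEFs can be turned into fat cells by hormones. Several of the same genes, among them *Cd36*, *Fabp4*, *Fabp5*, *Lpl*, *Plin2* and *Cebpa*, are also used by macrophages, which take up lipid.

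The total count was 17435133 to 17726034 in WT and 18209421 to 18252330 in *Aff3ir-ORF2*-/- libraries. The *Aff3ir-ORF2*-/- libraries varied more among themselves, with a biological coefficient of variation (replicate spread beyond counting noise) of 0.0998 against 0.0185 in WT. All 18 fibroblast markers examined were tested, and their summed level was 35038 to 35057 CPM (read counts scaled to library size by the TMM method) in WT and 29611 to 37167 in *Aff3ir-ORF2*-/- libraries. *Aff3ir* itself was not analysed here. The gene around it, *Aff3*, was at 23.5 ± 0.416 CPM in WT and 11.3 ± 1.30 in *Aff3ir-ORF2*-/- MEFs (SD, n = 3 each).

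The 5 genes called higher in *Aff3ir-ORF2*-/- MEFs were *Cd36*, *Angptl4*, *Fabp4*, *Cebpa* and *Cebpd*. A call needed an adjusted p under 0.05 in edgeR's quasi-likelihood test and a change of at least 1.5-fold. Of all 13075 tested genes, 21.4% were called, 14.2% as higher and 7.27% as lower. Another 3 genes, *Cebpb*, *Lpl* and *Plin2*, passed the adjusted p with increases under 1.5-fold, so that 8 of 10 passed it, all as higher, where 56.8% of all tested genes passed and 29.3% passed as higher. *Pparg* and *Fabp5* did not pass. None of the 10 was called lower by edgeR, and the number was also 0 with DESeq2 and with the unadjusted p. For 9 of the 10 genes, 8 of them higher, the libraries were fully separated by genotype, as were those of 66.0% of all tested genes (33.3% as higher). The median log2 fold change was 0.70 over the 10 genes and 0.01 over all tested genes.

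**Figure D1:**
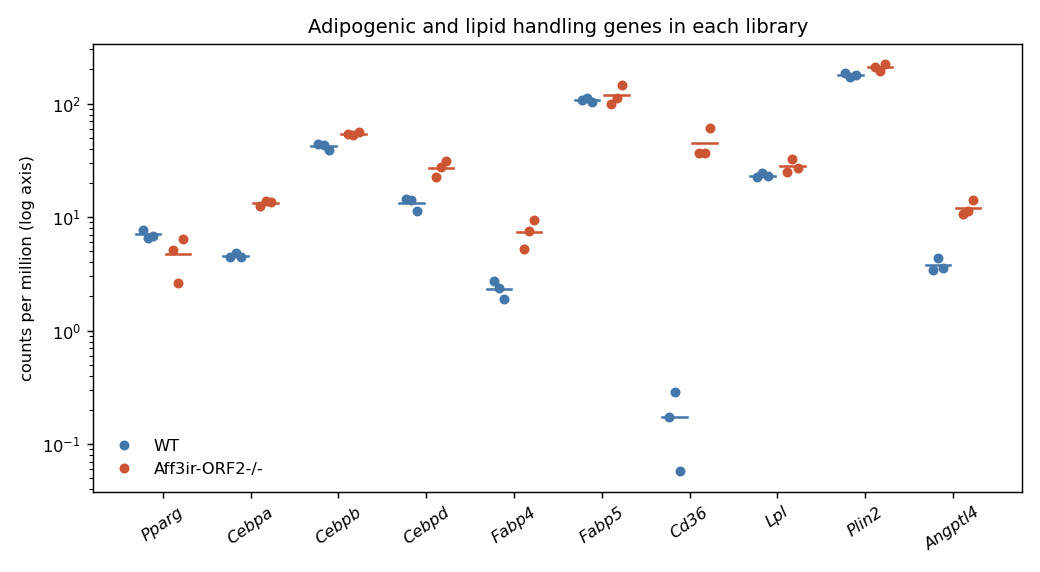
Level of each of the 10 genes in each library, in CPM on a log axis, with 3 WT (blue) and 3 *Aff3ir-ORF2*-/- (red) points per gene and a line at each mean. *Fabp5* is the gene whose genotypes overlap, *Cd36* is at 0.172 CPM on average in WT against 44.8 in *Aff3ir-ORF2*-/- MEFs, and the *Pparg* points lie lower in *Aff3ir-ORF2*-/- MEFs.

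The early factors of the C/EBP family, which are basic leucine zipper proteins, differed in size of change. *Cebpb* (gene ID 12608) gave 758, 759 and 685 counts across the WT replicates and 980, 991 and 1034 across the *Aff3ir-ORF2*-/- replicates, both listed here and below in the order 1, 2, 3. Every *Aff3ir-ORF2*-/- library was above every WT library, but by less than 1.5-fold (log2 fold change 0.37, standard error 0.06, adjusted p = 5.42e-04). *Cebpd* (gene ID 12609) gave 250, 249 and 198 WT counts against 413, 519 and 578 without *Aff3ir-ORF2*. The mean rose from 13.3 ± 1.74 to 27.3 ± 4.43 CPM (SD, n = 3), or 2.05-fold (log2 fold change 1.04, SE 0.14, adjusted p = 3.33e-04). Its deposited counts were not whole in any of the 6 libraries, while those of the other 9 genes were whole in all of them, and the cause was not tested.

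*Cebpa* (gene ID 12606), the late factor that keeps fat cells differentiated and is also needed in myeloid cells, was called higher. WT counts of 76, 84 and 78 stood against 227, 259 and 250, with no overlap. In CPM this was 4.55 ± 0.199 against 13.3 ± 0.762 (SD, n = 3), or 2.93-fold (log2 fold change 1.55, standard error 0.10, adjusted p = 3.33e-06). Over the 15 alternative settings its log2 fold change stayed between 1.51 and 1.59. The log2 ratio of *Cebpa* to *Cebpb* was larger by 1.16 in *Aff3ir-ORF2*-/- MEFs (KO minus WT, KO being *Aff3ir-ORF2*-/-), and that of *Cebpb* to *Cebpd* differed by -0.65. The ratio of *Fabp4* to *Fabp5* was also compared, and in all 3 pairs the genotypes did not overlap (exact permutation test, two-sided p = 0.1 and adjusted p = 0.1 over the 3 pairs, the smallest that 3 libraries against 3 allow).

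The family list also held *Cebpg* and *Ddit3* (CHOP, a stress-induced member that blocks the others). All 5 tested genes passed the adjusted p as higher and 3 were called higher, with a median log2 fold change of 0.82. These 5 include *Cebpa*, *Cebpb* and *Cebpd*, given above. Of all tested genes, 29.3% passed as higher and 14.2% were called higher. *Ddit3* rose from 41.5 ± 0.501 to 73.4 ± 15.5 CPM (SD, n = 3), and its log2 fold change was 0.82 (adjusted p = 0.00324). *Cebpg* had a log2 fold change of 0.46.

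*Pparg* (gene ID 19016) was not called. Its counts were 133, 115 and 119 in the WT libraries, and 93, 49 and 117 in the *Aff3ir-ORF2*-/- libraries. The lowest WT library was above the highest *Aff3ir-ORF2*-/- library in CPM by a small margin, at 6.54 against 6.38, while *Aff3ir-ORF2*-/- replicate 2 lay far below, at 2.63. The mean was 7.02 ± 0.614 CPM in WT and 4.70 ± 1.91 in *Aff3ir-ORF2*-/- MEFs (SD, n = 3), and the difference did not pass the test (log2 fold change -0.58, 95% interval -1.21 to 0.05, adjusted p = 0.104). Single libraries moved this value: it was -0.86 without *Aff3ir-ORF2*-/- replicate 3, when the gene was called lower (adjusted p = 0.0159), and -0.29 without replicate 2 (adjusted p = 0.0900). With the replicate number as a block it was also called lower (-0.61, adjusted p = 0.0358), and over the 15 alternatives the adjusted p ran from 0.0159 to 0.239.

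Among the receptors that bind DNA with or beside PPARγ, *Ppara*, which drives fatty acid burning in liver, was called higher from few counts. Its 10, 8 and 8 WT counts stood against 24, 44 and 20 (log2 fold change 1.67, standard error 0.38, adjusted p = 0.00431). *Rxra*, the main partner of PPARs, was at 57.1 ± 0.592 CPM in WT and 84.1 ± 2.99 in *Aff3ir-ORF2*-/- MEFs (SD, n = 3), and its log2 fold change of 0.56 passed the adjusted p (1.19e-05) but not the fold. For *Ppard*, a widely expressed PPAR, the log2 fold change was 0.25, also under 1.5-fold (adjusted p = 0.00923). Of the 5 tested receptors 1 was called, with a median of 0.25.

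The promoter table of RefSeq (GRCm38.p6) held 7 windows for 5 of the 10 genes, each from 250 bases before to 50 bases after an annotated start. *Cebpb*, *Plin2*, *Cebpa* and *Cd36* had 1 window each and *Pparg* had 3. *Cebpd*, *Fabp4*, *Fabp5*, *Lpl* and *Angptl4* had none. The build differs from the mm8 that the submitters' processing notes name, so these coordinates belong to the promoter table and not to the counts. Windows were searched on both strands for the TATA box TATAAA, the promoter element CCAAT, the C/EBP-type pattern TTGCNNAA, the nuclear receptor core AGGTCA and the direct repeat of that core with 1 base between, AGGTCANAGGTCA, the pattern PPARs bind with RXRs, which contains the core. The most downstream *Pparg* window, where the transcript typical of fat cells starts, is shown beside those of *Cebpa* and *Cd36*, called higher. Capitals mark every match, N being any base, and matches on the other strand read in reverse complement.
Pparg downstream window (chr6:115421816-115422115, plus strand): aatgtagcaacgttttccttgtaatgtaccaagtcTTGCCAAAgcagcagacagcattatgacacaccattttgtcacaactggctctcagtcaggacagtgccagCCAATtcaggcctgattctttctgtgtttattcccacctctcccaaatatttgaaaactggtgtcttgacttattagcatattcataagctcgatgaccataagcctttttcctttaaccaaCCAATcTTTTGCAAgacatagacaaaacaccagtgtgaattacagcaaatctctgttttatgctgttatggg
Cebpa (chr7:35119043-35119342, plus strand): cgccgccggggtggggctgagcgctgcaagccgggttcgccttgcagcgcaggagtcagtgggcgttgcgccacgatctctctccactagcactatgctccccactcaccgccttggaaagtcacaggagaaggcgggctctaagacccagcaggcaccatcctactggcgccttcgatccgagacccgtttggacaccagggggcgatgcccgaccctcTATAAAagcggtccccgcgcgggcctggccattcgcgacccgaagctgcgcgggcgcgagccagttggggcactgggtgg
Cd36 (chr5:17835847-17836146, minus strand): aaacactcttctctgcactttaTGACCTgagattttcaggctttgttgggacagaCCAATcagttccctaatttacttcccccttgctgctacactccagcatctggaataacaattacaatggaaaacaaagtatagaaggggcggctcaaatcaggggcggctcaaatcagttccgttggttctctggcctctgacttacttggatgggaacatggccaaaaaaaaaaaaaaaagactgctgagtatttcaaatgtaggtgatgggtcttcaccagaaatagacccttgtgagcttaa

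The *Pparg* window held 2 matches to TTGCNNAA, which no other of the 7 windows held and which 10.8% of all 32851 promoters hold. It also held 2 matches to CCAAT (37.4% of all promoters). The *Cebpa* window held a TATAAA (13.6% of all promoters) and had a GC content of 67.3%, against a median of 52.7%. *Cd36* held a CCAAT and a receptor core, and had a GC content of 43.0%. The receptor core was in 4 of the 7 windows (*Cd36*, *Plin2* and the other 2 of *Pparg*) and in 16.3% of all promoters. The direct repeat was in 0 of the 7 windows and in 0.0396% of all promoters. Reads were counted per gene, so the starts of *Pparg* cannot be told apart in these data.

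*Cd36* (gene ID 12491), a scavenger receptor that takes up long-chain fatty acids and oxidized lipoproteins, changed most of the 10. Its WT counts were 3, 5 and 1, and its *Aff3ir-ORF2*-/- counts 670, 686 and 1115. It was close to the detection floor, taken as 3 counts, in every WT library and well expressed in every *Aff3ir-ORF2*-/- library. The summed counts were 9 against 2471, a scaled ratio of 260 with an exact 95% interval of 137 to 570, which covers counting error only. The fit gave a log2 fold change of 7.97 (SE 0.48, adjusted p = 4.54e-05), the 12th highest of the 13075 tested genes. Of the list of fatty acid uptake and activation genes, 1 of 16 tested genes was called higher (*Cd36*) and 1 lower, with a median of -0.14. The lower one was *Mfsd2a*, a carrier of lysophosphatidylcholine (log2 fold change -0.60, adjusted p = 0.00929). *Cav1* and *Cavin1*, the most abundant of the list and structural parts of caveolae, had log2 fold changes of -0.36 (adjusted p = 0.00231) and -0.27 (adjusted p = 0.0366).

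The fatty acid binding proteins carry fatty acids inside the cell. *Fabp4* (gene ID 11770), the form of fat cells and macrophages, gave 47, 42 and 33 WT counts and 96, 141 and 173 *Aff3ir-ORF2*-/- counts. It rose from 2.33 ± 0.421 to 7.42 ± 2.08 CPM (SD, n = 3), or 3.17-fold (log2 fold change 1.67, standard error 0.24, adjusted p = 3.24e-04). *Fabp5* (gene ID 16592), the epidermal form that is made in many cell types, gave 1841, 1981 and 1811 WT counts and 1799, 2103 and 2690 *Aff3ir-ORF2*-/- counts. The genotypes overlapped and the difference was within the replicate error (log2 fold change 0.15, 95% interval -0.20 to 0.49, adjusted p = 0.409), and without *Aff3ir-ORF2*-/- replicate 3 it was -0.03. The log2 ratio of *Fabp4* to *Fabp5* was larger by 1.47 in *Aff3ir-ORF2*-/- MEFs, with the permutation test given above.

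The pair lies in a cluster of binding protein genes, where *Pmp2* stands between them, with 0 counts in each WT library and 3, 0 and 3 *Aff3ir-ORF2*-/- counts. Outside that cluster, *Fabp3*, the heart form, rose from 16.5 ± 0.642 to 36.2 ± 1.91 CPM (SD, n = 3), and its log2 fold change was 1.13 (adjusted p = 2.00e-06). *Fabp7*, the brain form, gave 10, 14 and 19 WT counts against 47, 47 and 61 (log2 fold change 1.76, adjusted p = 3.70e-04). Thus 3 of the 4 tested binding protein genes, which include *Fabp4* and *Fabp5*, were called higher, as were 14.2% of all tested genes. *Fabp9* and *Fabp12* were not analysed here.

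*Lpl* (gene ID 16956) encodes the lipase that frees fatty acids from circulating lipoproteins, and *Angptl4* (gene ID 57875) a secreted protein that inactivates it. *Lpl* gave 385, 429 and 402 WT counts and 454, 610 and 500 *Aff3ir-ORF2*-/- counts. The *Aff3ir-ORF2*-/- libraries were all higher, by 1.22-fold (log2 fold change 0.28, standard error 0.10, adjusted p = 0.0329). The adjusted p was over 0.05 in 5 of 15 alternatives, those without any 1 of the 3 WT replicates (0.0573 to 0.120), without *Aff3ir-ORF2*-/- replicate 2 (0.0586, log2 fold change 0.16) and with limma voom (0.0537). *Angptl4* gave 59, 76 and 62 WT counts and 193, 212 and 258 *Aff3ir-ORF2*-/- counts. It rose from 3.76 ± 0.488 to 12.0 ± 1.82 CPM (SD, n = 3), or 3.19-fold (log2 fold change 1.67, standard error 0.15, adjusted p = 1.66e-05). The intervals of the log2 fold change, 0.06 to 0.51 for *Lpl* and 1.34 to 2.01 for *Angptl4*, did not overlap. Both genes were measured in the same libraries, and the difference between their changes was not tested.

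Of the list around these genes, 2 of 12 tested genes were called, both higher (median 0.06). The other was *Lipa*, the acid lipase of lysosomes, which rose from 61.3 ± 4.22 to 113 ± 13.3 CPM (SD, n = 3; log2 fold change 0.89, adjusted p = 6.85e-05). The most abundant were *Lrp1*, a receptor for lipoprotein remnants, at 0.27, and *Furin*, a protease that cleaves LPL and ANGPTL proteins, at -0.31 on the log2 scale (adjusted p = 0.00787 and 0.00119).

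*Plin2* (gene ID 11520) coats lipid droplets in most cell types. Its WT counts were 3239, 3042 and 3132 against 3834, 3624 and 4073, higher in every *Aff3ir-ORF2*-/- library by 1.16-fold on average (log2 fold change 0.22, standard error 0.06, adjusted p = 0.00912). Without WT replicate 2 its adjusted p was 0.0562. Of 18 tested genes of droplet coat and storage 2 were called, both higher: *Plin4*, another coat protein (log2 fold change 1.09, adjusted p = 3.76e-04), and *Lpin1*, which makes diacylglycerol for storage and also acts with PPAR coactivators (1.07, adjusted p = 1.31e-05). *Gpat4*, an abundant enzyme of glycerolipid synthesis, was at -0.03 (adjusted p = 0.596). *Plin1*, the coat protein of fat cells, had WT counts of 0, 1 and 0 and *Aff3ir-ORF2*-/- counts of 2, 0 and 0.

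**Figure D2:**
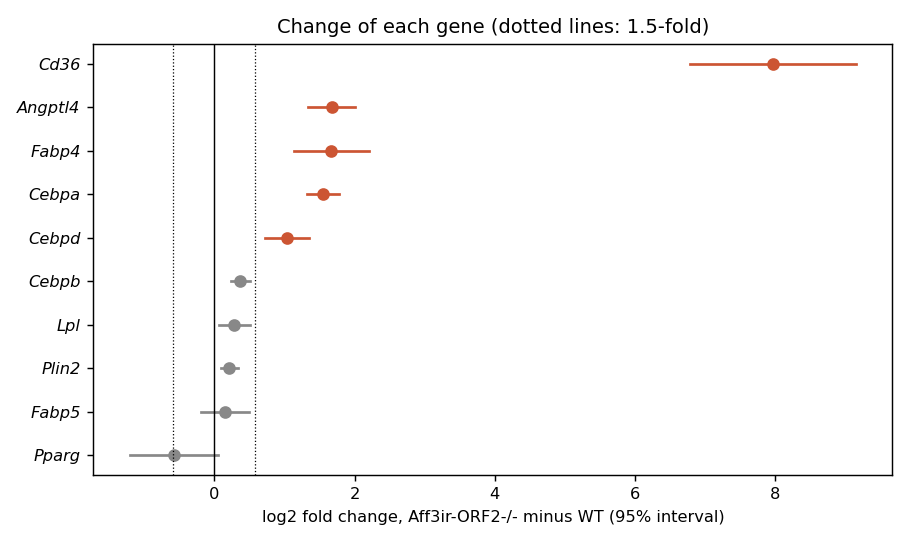
Log2 fold change of each of the 10 genes, *Aff3ir-ORF2*-/- minus WT, with its 95% interval from the edgeR fit; red marks the 5 genes called higher and dotted lines a 1.5-fold change. *Cd36* stands apart at 7.97, 4 genes lie between 1.04 and 1.67, and the interval of *Pparg* reaches from -1.21 to 0.05.

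Levels of different genes were set side by side only per length, as CPM per kilobase of the longest protein-coding GENCODE M21 transcript, which need not be the transcript these cells use. In WT MEFs the order was *Fabp5* (109), *Plin2* (95.4), *Cebpb* (28.0), *Lpl* (5.65), *Cebpd* (3.56), *Pparg* (3.30), *Fabp4* (2.61), *Cebpa* (1.73), *Angptl4* (1.14) and *Cd36* (0.0506). The libraries of neighbours overlapped only for *Cebpd* and *Pparg*. In *Aff3ir-ORF2*-/- MEFs *Fabp5* and *Plin2* overlapped at the top (121 and 111), followed by *Cebpb* (36.2). *Cd36* moved from the last place to the fourth (13.2 CPM per kilobase). *Fabp4* (8.28), *Cebpd* (7.30) and *Lpl* (6.88) followed, of which the first overlapped the second and the second the third, then *Cebpa* (5.08) and *Angptl4* (3.63). *Pparg* was last (2.21).

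Of the 16 adipocyte markers in the table, 9 were at 3 counts or fewer in every library, and 4 could be tested. Of these 4, 3 were called higher (*Cebpa*, *Fabp4* and *Lipe*) and *Pparg* was not called, with a median of 1.53. Among all tested genes, 14.2% were called higher. *Adipoq*, which encodes the fat cell hormone adiponectin, had WT counts of 0, 1 and 0 and *Aff3ir-ORF2*-/- counts of 2, 0 and 1. *Cidec*, a droplet fusion protein, had WT counts of 0, 0 and 1 and 0 in each *Aff3ir-ORF2*-/- library. *Slc2a4*, the insulin-responsive glucose carrier, had 3, 3 and 4 against 4, 11 and 9. *Lep* was not analysed here. *Lipe*, the hormone-sensitive lipase, rose from 1.43 ± 0.255 to 4.12 ± 0.650 CPM (SD, n = 3), and its log2 fold change was 1.52 (adjusted p = 2.32e-04).

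Macrophage markers moved with the genotype, as the 5 called genes did by the rule that called them. All 26 tested genes of a 28-gene macrophage list were called higher, and the summed level of the list was 26.6 to 30.7 CPM in WT and 1569 to 2675 in *Aff3ir-ORF2*-/- libraries. In WT, 7 of the 27 list genes in the table were at 3 counts or fewer in every library, with *C1qa*, *C1qb*, *Fcgr1* and *Aif1* at 0. *Lyz2*, the lysozyme of macrophages, had the most counts of the list, at 10.4 ± 0.963 against 1085 ± 289 CPM (SD, n = 3). In bulk RNA, more cells of a type and more RNA per cell cannot be told apart. Per 100 CPM of the macrophage sum, *Cd36* was at 2.34, 1.69 and 2.27 CPM in *Aff3ir-ORF2*-/- replicates 1, 2 and 3, and at 0.654, 0.928 and 0.201 in WT replicates 1, 2 and 3, there from 1 to 5 counts. The part of these markers in the results on the 10 genes was not tested.

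The macrophage sum was lowest in *Aff3ir-ORF2*-/- replicate 1, at 1569 CPM, then replicate 2 at 2180, and highest in replicate 3. *Cebpd*, *Fabp4*, *Fabp5*, *Cd36* and *Angptl4* stood in the same order over these 3 libraries, 5 of the 10 genes and 4 of the 5 called ones. The order was shared by 26.5% of all genes called higher and 12.4% of all tested genes. It was also shared by 20 of the 26 macrophage markers, but these make up the sum that set the order. *Cd36* differed little between replicates 1 and 2 (36.79 and 36.82 CPM), and *Cebpa* and *Lpl* were highest in replicate 2.

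**Figure D3:**
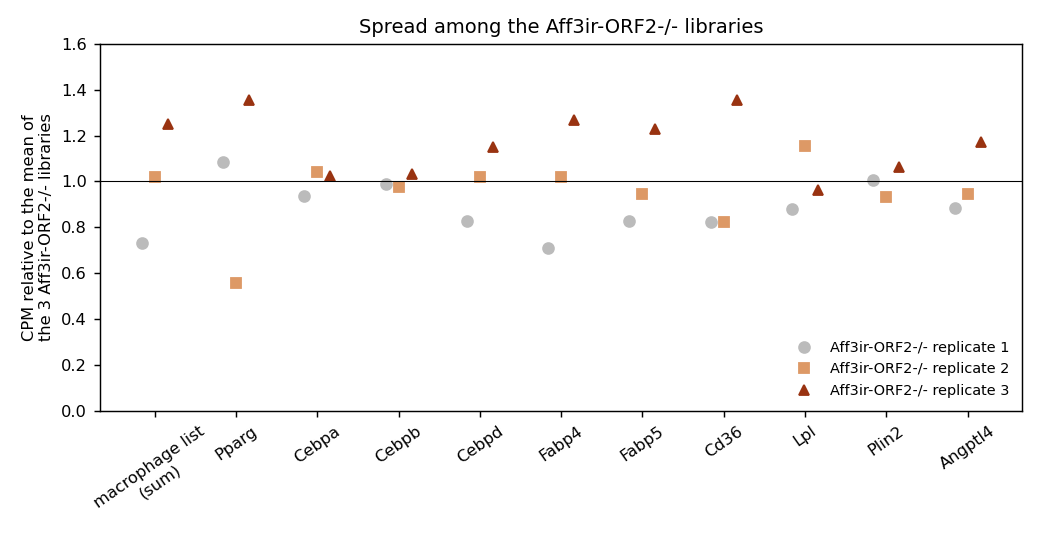
CPM of the summed macrophage list and of each of the 10 genes in the 3 *Aff3ir-ORF2*-/- libraries, each divided by its own mean over those libraries. Replicate 3 (triangles) is highest for the macrophage list and for 8 of the 10 genes, while *Pparg*, *Cebpb* and *Plin2* are lowest in replicate 2. The full order of the macrophage list is shared by 5 of the 10 genes and by 12.4% of all tested genes.

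Fibroblast and endothelial markers showed no such common shift. Of 18 fibroblast markers 2 were called higher and 1 lower (median -0.06, and -0.25 without *Aff3ir-ORF2*-/- replicate 2). *Lum* and *Postn*, both matrix proteins, had log2 fold changes of 2.17 and -1.04. Of 7 tested endothelial markers, cells in which *Cd36* and *Fabp4* are also found, 3 were called higher and 1 lower, with a median of -0.14. Without *Aff3ir-ORF2*-/- replicate 2 this median was 0.50. That fit kept 13169 genes against 13075 in the main one, so the endothelial median can rest on other genes. The endothelial markers called higher were *Vwf* (log2 fold change 2.24, adjusted p = 8.57e-05), *Erg* (2.51, adjusted p = 8.90e-04) and *Kdr* (1.01, adjusted p = 0.00668). *Cdh5*, the endothelial cadherin, was called lower (-0.90, adjusted p = 0.0294), from 15, 18 and 22 WT counts against 9, 10 and 12. *Erg* also had few counts, 5, 3 and 7 against 21, 45 and 26. DESeq2 called 3 endothelial markers higher and 0 lower.

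The other pathway genes came from 12 lists of regulators and of lipid uptake, storage, synthesis and breakdown. Besides the 10 genes, these lists held 143 tested genes, of which 28 were called higher and 8 lower, or 25.2% against the 21.4% of all tested genes, with a median of 0.07. The 35 tested regulators of adipogenesis moved in both directions, 11 higher and 5 lower, with a median of 0.02. *Egr2*, an early inducer, fell from 50.2 ± 0.702 to 4.23 ± 0.823 CPM (SD, n = 3; log2 fold change -3.57, adjusted p = 6.01e-08). *Ebf1*, which promotes fat cell formation, was lower (log2 fold change -1.12, adjusted p = 8.34e-07), as was *Klf2*, a repressor of *Pparg* (-0.65, adjusted p = 2.85e-05). *Zfp467*, which promotes adipogenesis, was higher (2.30, adjusted p = 3.89e-05).

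The other 12 called regulators of the list were named after their values were seen, and they hold activators and repressors of adipogenesis in both directions. The lower ones were *Klf5*, an activator of *Pparg* (log2 fold change -1.55, adjusted p = 2.37e-04), and *Sirt1*, a deacetylase that represses PPARγ (-0.60, adjusted p = 8.93e-05). Among the higher ones, *Gata2* and *Gata3* repress *Pparg*, *Gata2* at 3.50 ± 0.207 against 10.7 ± 2.22 CPM (SD, n = 3, adjusted p = 4.86e-05) and *Gata3* with a log2 fold change of 1.02 (adjusted p = 0.0154). *Wnt10b*, a Wnt ligand that blocks adipogenesis, was at 1.03 ± 0.206 against 2.94 ± 0.305 CPM (SD, n = 3, adjusted p = 3.47e-04), and *Foxo1*, which restrains it, had a log2 fold change of 0.82. Factors that promote white or brown fat cell formation were also among the higher ones: *Klf15* (0.65, adjusted p = 0.0146), *Ebf2* (0.86, adjusted p = 0.00119), *Prdm16* (0.59, adjusted p = 0.0243) and *Foxc2* (0.76, adjusted p = 7.80e-04). *Nr1h3*, the oxysterol receptor LXRα that is also abundant in macrophages, was higher as well (1.65, adjusted p = 0.00353), as was *Dlk1*, given with the preadipocyte markers. *Ncor1*, an abundant corepressor of nuclear receptors, was at -0.04 (adjusted p = 0.581). Of 12 tested preadipocyte markers 4 were called higher, among them *Dlk1*, which holds preadipocytes undifferentiated and rose from 38.6 ± 1.19 to 68.0 ± 9.25 CPM (SD, n = 3; log2 fold change 0.82, adjusted p = 9.16e-05). *Icam1*, also an inflammatory adhesion molecule, *Pdgfrb* and *Ccn5* were the others (2.79, 0.59 and 0.93). The most abundant were *Itgb1*, at 0.33, and *F3*, at -0.13, which did not pass (adjusted p = 0.556).

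Of 15 tested genes of de novo lipogenesis edgeR called 0, as did DESeq2, while 11 passed the adjusted p, 3 higher and 8 lower, and the same numbers passed the unadjusted p. The median was -0.21, and *Fasn*, the fatty acid synthase, was at 506 ± 7.19 against 453 ± 72.5 CPM (SD, n = 3) and *Scd2*, a desaturase, at 810 ± 3.03 against 790 ± 106, both within the replicate error (adjusted p = 0.250 and 0.748). Of 8 tested genes of intracellular lipolysis, 3 were called higher, among them *Lipe* and *Mgll*, which cleaves the last fatty acid (log2 fold change 0.69, adjusted p = 0.00260). *Pnpla2*, which cleaves the first one, was at 0.52 (adjusted p = 0.00105) and its activator *Abhd5* at -0.05 (adjusted p = 0.478). The median of this list was 0.32.

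Among 26 tested genes of fatty acid oxidation, 4 were called higher and 2 lower, and 14 passed the adjusted p as higher against 3 as lower (median 0.22). *Cpt1a*, the gate of fatty acid entry into mitochondria, rose from 44.5 ± 0.797 to 85.2 ± 8.38 CPM (SD, n = 3; log2 fold change 0.94, adjusted p = 6.24e-06). *Ucp2*, a mitochondrial carrier that is abundant in macrophages, rose by 3.15 and *Pdk4*, which turns cells from glucose to fat use, by 1.86 on the log2 scale (adjusted p = 2.14e-04 and 0.00126). *Acot1*, which splits acyl-CoA in the cytosol, was lower (-0.87, adjusted p = 0.00221). As a gene with close paralogs it is uncertain, and whether reads were shared with them was not tested. The abundant enzyme *Hadha*, of mitochondrial oxidation, was at 0.27 (adjusted p = 4.78e-04).

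**Figure D4:**
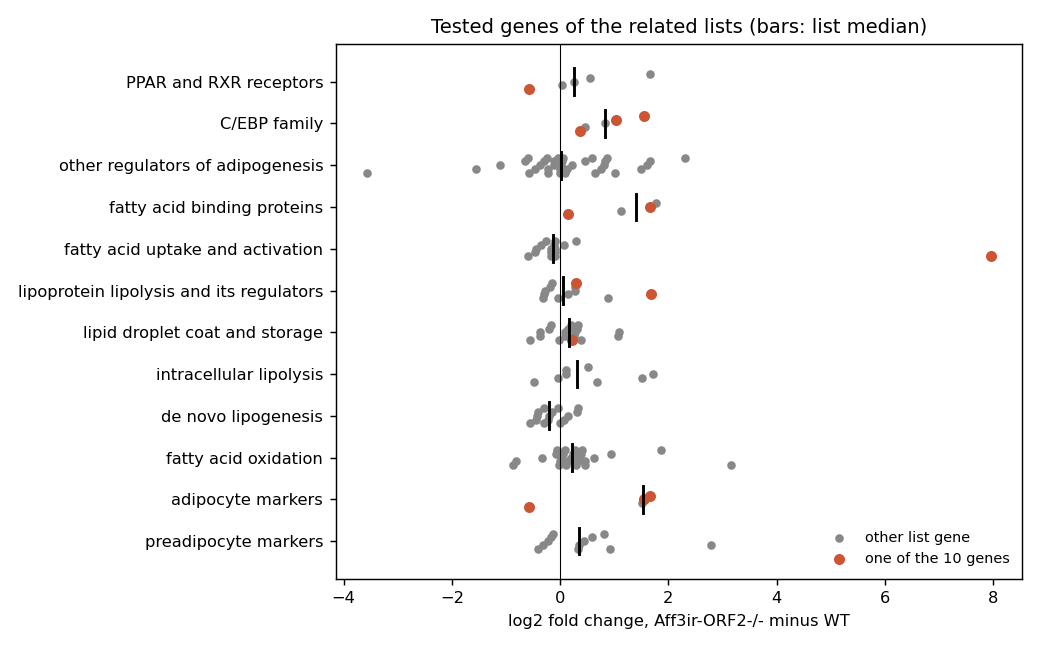
Log2 fold change, *Aff3ir-ORF2*-/- minus WT, of every tested gene in the 12 lists of adipogenesis and lipid metabolism, with the 10 genes in red, the other list genes in grey and a bar at each list's median. The medians lie between -0.21 (de novo lipogenesis) and 1.53 (adipocyte markers, of which only 4 genes were tested, 3 of them among the 10), and *Cd36* lies far from the other uptake genes.

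The genes most like *Pparg* in their levels over the 6 libraries were *Id4* and *Nqo1*, with root mean square differences of 0.0773 and 0.0777 between centred log2 CPM, among 11564 genes with a mean log2 CPM of at least 1. Their log2 fold changes were -0.58 and -0.62, and neither passed the test. The closest to *Lpl* were *Zfp110*, *Abcd4* and *Acaa1a* (0.0400, 0.0411 and 0.0432), with log2 fold changes of 0.30, 0.26 and 0.34.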

How the data were processed

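RNA-seq libraries of WT and *Aff3ir-ORF2*-/- MEFs, 3 of each, were used. By the paper's methods, paired-end DNBSEQ reads were filtered with SOAPnuke. The values the authors deposited are estimated counts of reads for each gene, without normalization. The aligner, counter and annotation are not given in the sources used here, and the submitters' processing notes name mm8. Between 10.6% and 11.3% of a library's values were not whole, and all were rounded.

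Genes were kept by filterByExpr (minimum count 10, minimum total 15), scaled by TMM and tested with edgeR 4.0.16 (quasi-likelihood, robust spread, no covariates, R 4.3.3), with Benjamini-Hochberg adjustment over all 13075 tested genes. Every adjusted p is from this test unless another is named. Standard errors are the log2 fold change over the square root of F. Ratios of gene pairs were differences of log2 CPM (prior count 2).

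The 10 genes and all lists were chosen with earlier results of these data known. From each list, the text names up to 4 called genes by adjusted p, the 2 most abundant, and genes of a defining role, not all of the latter, plus genes stated as named after their values were seen. *Aff3ir* and some genes that this rule selects are not reported here. The functions were tested on simulated data. The alternatives were 3 scalings, 2 filters, DESeq2 1.42.0, limma 3.58.1 voom, a replicate block, each library left out, and other thresholds. Fitting without robust spread was added after seeing the data.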

Additional observations from a re-analysis of the deposited data

How the results depend on the processing

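The count of 5 of the 10 genes called higher was the same under each alternative except the filter of at least 10 counts in every library, which leaves out *Cd36* and gave 4. One gene, *Pparg*, was called lower with the replicate block and without *Aff3ir-ORF2*-/- replicate 3, so that the number lower ran from 0 to 1 over the libraries left out. The log2 fold change of *Fabp5* ran from -0.028 (without *Aff3ir-ORF2*-/- replicate 3) to 0.26 (without replicate 1) over the libraries left out. The cause was not tested in either case. A 2-fold threshold gave 1096 higher and 317 lower genes in all, and a test against a 1.5-fold change 1074 and 410, in place of 1851 and 951, as both thresholds are stricter by construction. Without the adjustment the numbers were 1912 and 980, and without robust spread, chosen after seeing the data, 1865 and 957.

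The replicate numbers do not mark a shared animal or day in the labels. Deviations of same-numbered libraries from their genotype means correlated at 0.0386, 0.0424 and 0.0145, all under 0.1. Each library correlated best with its own number, but the values are small and whether they mark a pairing was not tested. The block gave 1854 higher and 954 lower genes and, of the 10 genes, changed the call of *Pparg* alone. List medians that changed sign with a library left out were those of the other regulators (-0.04 without *Aff3ir-ORF2*-/- replicate 2), fibroblast markers (0.01 without replicate 3) and endothelial markers (0.41 to 0.50 without any 1 WT replicate or *Aff3ir-ORF2*-/- replicate 2, and 0.45 with at least 10 counts in every library). Each of these medians was taken over the list genes that passed the filter in that setting, so the genes behind it can differ. Genes under 10 counts, such as *Cd36* in WT, are limited by counting error.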
